A study of Mus musculus with 24 samples.

Results

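Renal cortex of healthy mice was described from the 6 libraries of non-diabetic mice given vehicle, chosen by their sample labels alone, out of 24 libraries in the series. The series profiled C57BL/6 mouse renal cortex with and without diabetes induced by streptozotocin, a toxin of insulin-producing cells, and with and without PMX-53, a peptide inhibitor of the complement C5a receptor 1. All groups shared their chow and a light-dark cycle. The mice described here entered the study at 6 weeks of age, received 0.5 M sodium citrate in place of streptozotocin and plain drinking water in place of PMX-53, and were followed for 24 weeks. No other allele or agent is named, the sex of the mice is not given in the sources used here, and no library of another group entered any value. The 6 libraries carry separate labels, but nothing says that each came from a separate animal, so the spread between them may be technical in part.

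The cortex of the kidney holds the filtering glomeruli and the tubule segments that recover most of the filtrate. The proximal tubule, its most abundant segment, takes back sodium, glucose, phosphate, amino acids and filtered protein, burns fatty acids for energy and makes glucose. The thick ascending limb, distal convoluted tubule, connecting tubule and collecting duct follow in that order and set the final salt and water content of the urine.

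After removal of ribosomal RNA the cortex RNA was sequenced, and the deposited values are counts per gene. The 6 libraries held between 12461567 and 17810087 counts over 48526 annotated entries. Levels are given as CPM, the counts scaled to a library total of 1000000, as mean ± SD over n = 6 libraries. Since a longer transcript gives more counts, levels of different genes are compared as CPM per kilobase of exon, and an order by CPM is one of counts only. In bulk tissue, fewer cells of a type and less RNA per cell cannot be told apart. Of all entries, 22507 had no count in any of the 6 libraries, 14070 averaged at least 1 CPM, of which 12504 were protein-coding, and 57 averaged at least 1000 CPM. Each library detected between 21259 and 21878 entries. No 2 libraries were identical, and across genes the pairwise Pearson correlation of log2(CPM + 1) lay between 0.984 and 0.994 over the 15 pairs, where genes are not independent replicates.

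The composition of the libraries bears on every CPM. Nuclear protein-coding genes took 65.7% ± 4.49 of counts, the 2 mitochondrial ribosomal RNAs 18.8% ± 1.33, mitochondrially encoded messenger RNAs 3.77% ± 0.413 and nuclear ribosomal RNA entries 3.40% ± 0.674. Entries annotated as small RNA took 5.32% ± 2.58, with 6.44%, 7.81%, 6.24%, 7.29%, 2.22% and 1.95% in replicates 1 to 6. Replicates 5 and 6 thus stood well below the other 4, and their small RNA ranges did not overlap. The widest 95% Wilson interval of any such share reached 0.0255 percentage points to either side, which covers counting error only. Most counts of the small RNA class lay in Gm23935, an entry of 57 bases annotated as a miRNA at chr16:11144125-11144181 (GRCm38). It held 5.46%, 6.71%, 5.43%, 6.37%, 1.68% and 1.31% of all counts in replicates 1 to 6. The gap in the class was therefore mostly that of this entry, whose share cannot be read as the level of a mature miRNA. Replicates 5 and 6 were also lowest for Gm42418, one of the nuclear ribosomal RNA entries, with 2932 and 3880.5 CPM against 8119 to 23409.8 in the other 4. Lars2, a mitochondrial leucyl-tRNA synthetase, was lowest in them too, with 62.2 and 74.6 CPM against 676 to 2666. Both were highest in replicate 2 and lowest in replicate 5. Gm26917, another nuclear ribosomal RNA entry, did not share this gap, with 21000.1 and 27351.3 CPM in replicates 5 and 6 against 20254.8 to 24136.4 in the other 4. The cause was not tested. Nuclear protein-coding genes took 70.4% and 71.6% of counts in replicates 5 and 6, against 60.7% to 65.6% in the other 4. Of entries of at least 1 CPM, 71.3% had their highest CPM in replicate 5 or 6. TMM, a scaling that centres most genes, is therefore given beside counts of genes by their highest library. For 39 single genes whose highest or lowest library is named, the 45 statements examined were the same with TMM scaling. Other such statements, as for Bcl6, Egr1, Lars2 and Gm42418, were outside this check.

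**Figure D1:**
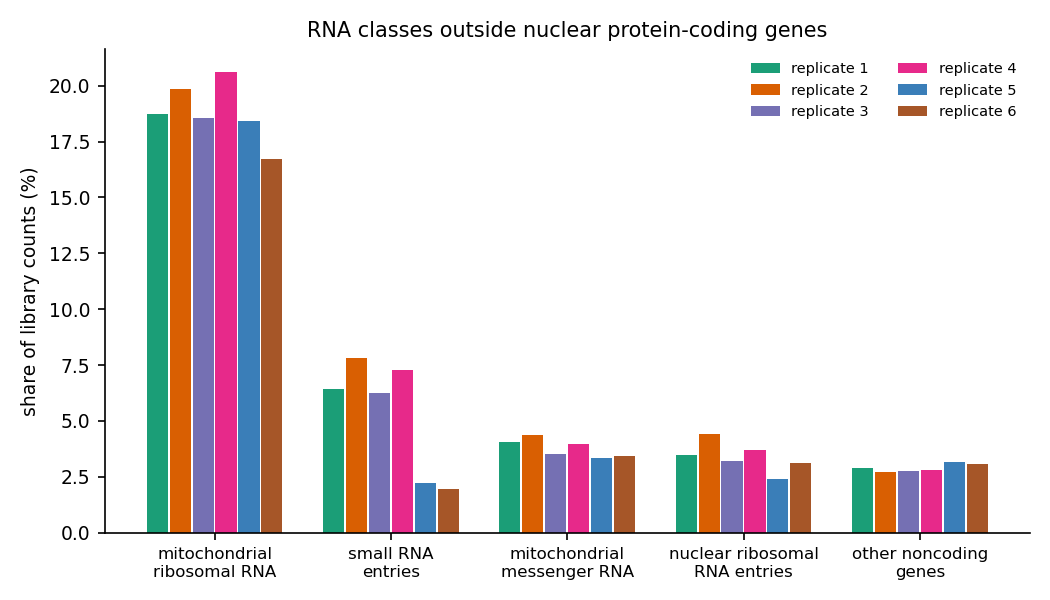
Share of each library's counts (percent, linear axis from 0) taken by the classes of RNA other than nuclear protein-coding genes, 1 bar per library. Small RNA entries took 2.22% and 1.95% in replicates 5 and 6 and between 6.24% and 7.81% in the other 4, mostly through the entry Gm23935. Mitochondrial ribosomal RNA lay between 16.7% and 20.6%.

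Leaving out ribosomal and small RNA, unnamed gene models and mitochondrially encoded genes, the gene with the most counts was Malat1, a nuclear long noncoding RNA, at 19454 ± 1410.1 CPM. It was followed by Kap, an androgen-regulated protein of the proximal tubule, at 9984 ± 1558 CPM, Gpx3, the secreted glutathione peroxidase that the kidney makes for plasma, at 9704 ± 1028 CPM, Lrp2, the endocytic receptor megalin, at 6508 ± 522 CPM, and Slc34a1, the sodium-phosphate cotransporter NaPi-IIa, at 4838 ± 510.0 CPM. Among the next places were Acsm2, a medium-chain acyl-CoA synthetase, Slc27a2, a fatty acid transport protein, and Cyp4b1, a cytochrome P450, with means of 4003 ± 408 CPM, 3360.3 ± 292 CPM and 2866 ± 293 CPM. Tns1, Timp3, Atp11a, Ndrg1, Fth1, Atp5b, Sepp1, Pck1, Slc4a4 and Umod closed the 20 highest, the last at 1607 ± 206 CPM. The 10 most counted protein-coding genes together held 7.67% ± 0.320 of protein-coding counts and the first 100 held 21.03% ± 0.560. The same 20 genes were found under each of 3 other scalings of all 6 libraries.

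Per kilobase of exon the order changed, with the short transcript of Kap far ahead. Kap came first at 14122 ± 2203 CPM per kilobase, then Gpx3 at 5353 ± 567 and Malat1 at 2786 ± 202. Further high genes were Cyp4b1 at 1270.3 ± 129.9, Slc34a1 at 1035 ± 109 and Slc27a2 at 895 ± 77.9. Lrp2, a very long transcript, stood at rank 4 by CPM and at rank 30 by CPM per kilobase, at 389.7 ± 31.3. Among genes that entered the first 20 only per kilobase were Miox, the enzyme that opens the inositol ring, at 699 ± 91.2, Gpx1 at 638 ± 44.8, Eef1a1, a translation elongation factor, at 635 ± 20.7, Ass1, which makes argininosuccinate, at 557 ± 57.2, Slc22a12, the urate transporter, at 526 ± 30.1, Atp1b1, a subunit of the sodium pump, at 516 ± 47.4, and Klk1, tissue kallikrein, at 508 ± 77.7. Along the order of the first 20 genes per kilobase, the ranges of the 6 libraries were apart in 4 of 19 neighbouring pairs, so most neighbours cannot be ordered beyond their spread.

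Kap lies at chr6:133849851-133853762 on the minus strand of GRCm38. The 250 bases before its RefSeq start, chr6:133853668-133853917 (minus strand, GRCm38.p6), are shown because it is the highest of these genes per kilobase, with a TATA box in capitals.

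Kap: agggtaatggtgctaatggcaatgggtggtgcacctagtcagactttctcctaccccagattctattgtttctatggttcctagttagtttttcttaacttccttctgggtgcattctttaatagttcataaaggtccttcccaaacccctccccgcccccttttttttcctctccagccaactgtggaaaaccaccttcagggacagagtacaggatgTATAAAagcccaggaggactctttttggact

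The letters TATAAA, searched on both strands over 300-base windows that run from 250 bases before to 50 after each start, begin 31 bases before the Kap start. They were present in 4 of the 16 genes of the CPM list that matched a window, Acsm2, Fth1, Kap and Slc34a1, and in 13.6% of all 32851 windows. A gene counted if any of its windows held the letters, and the 32851 windows stand for 27025 symbols. Shares of genes and of windows are therefore unlike units. A match describes the letters and is not a measured binding site.

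The 6 genes taken as markers of the tissue were present in every library. Kap, which marks the proximal tubule of male mice, had 8161 CPM at the lowest, 9424 at the median and 12017 at the highest. Lrp2 had 5829.5 CPM at the lowest, 6546 at the median and 7165 at the highest, and Slc34a1 had 3868 CPM at the lowest, 4931 at the median and 5350.5 at the highest. The 3 proximal genes were high in all 6 libraries, and only Slc34a1 had a library clearly apart, replicate 5. Umod, uromodulin of the thick ascending limb, had 1316 CPM at the lowest, 1623 at the median and 1933 at the highest. Slc12a3, the thiazide-sensitive sodium chloride cotransporter of the distal convoluted tubule, had 802 CPM at the lowest, 872 at the median and 949 at the highest, and Aqp2, the vasopressin-regulated water channel of principal cells, had 23.2 CPM at the lowest, 35.5 at the median and 47.4 at the highest. Per kilobase the order was Kap, Slc34a1 at 1035 ± 109, Umod at 581 ± 74.6, Lrp2 at 389.7 ± 31.3, Slc12a3 at 78.6 ± 4.38 and Aqp2 at 24.5 ± 6.49, and the ranges were apart in all 5 neighbouring pairs.

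By the median of their lists, genes of podocytes, and of pericytes and fibroblasts in or outside glomeruli, sat near the middle of expressed genes. The median of endothelial genes lay above it. List medians include members under 1 CPM, which the median over expressed entries leaves out. All 12 podocyte genes averaged at least 1 CPM, and their median was 4.15 CPM per kilobase, against 3.78 over all entries of at least 1 CPM. Podxl, the podocyte's surface sialomucin, which endothelium also makes, led at 21.9 ± 2.38 CPM per kilobase, followed by Clic5 at 11.9 ± 1.65. Nephrin, Nphs1, of the slit diaphragm, stood at 2.33 ± 0.255 and Plce1 was the lowest at 0.539 ± 0.0704. Endothelial genes, 12 of 12 at 1 CPM or more, had a median of 6.63 CPM per kilobase, with Plvap, a diaphragm protein of fenestrated capillaries, at 32.1 ± 2.85, Eng at 18.8 ± 2.03 and Kdr, the main VEGF receptor, at 10.4 ± 0.976. Among mesangial, pericyte and smooth muscle genes, 9 of 10 reached 1 CPM with a median of 3.67 over the list. Renin, Ren1, made by juxtaglomerular cells, was highest there at 13.5 ± 5.25 and Cnn1 lowest at 0.0363 ± 0.0243. The 7 fibroblast genes had a median of 3.14, from Pdgfra at 4.84 ± 0.582 to Lum at 0.227 ± 0.128.

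Proximal tubule genes stood far above that level. The 12 genes shared by its segments had a median of 224 CPM per kilobase, and all 12 exceeded 1 CPM. The first segment (S1) list of 6 had a median of 66.3, led by Slc4a4, the basolateral bicarbonate exit path, at 151 ± 11.9 and Slc5a2, the glucose transporter SGLT2, at 136 ± 13.8. The S2 list of 4 had a median of 94.8, led by the organic anion transporter Slc22a6 at 198 ± 24.2. In the S3 list of 7 the median was 52.8, and its members reached from Acy3 at 454 ± 37.9 and Slc7a13 at 284 ± 49.5 down to Slc5a1, the glucose transporter SGLT1, at 14.5 ± 3.86. Several members of the shared list are expressed outside the tubule too, so its median is no measure of cell number.

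Beyond the proximal tubule the levels differed widely between the genes of each segment. Thick ascending limb genes, 8 of 8 expressed, had a median of 35.2 CPM per kilobase, from Umod and the growth factor Egf at 122 ± 17.5 through the loop diuretic target Slc12a1 at 104 ± 25.2 to Cldn19 at 2.81 ± 0.767. Distal convoluted tubule genes had a median of 5.67, Slc12a3 and its regulator kinase Wnk4 at 39.1 ± 2.85 standing above the magnesium channel Trpm6 at 4.02 ± 1.35. In the connecting tubule list the median was 35.9, from Klk1 and the calcium-binding S100g at 281 ± 33.2 to the calcium channel Trpv5 at 4.27 ± 0.725, and all 4 neighbouring pairs in that order were apart. Principal cell genes had a median of 7.51, with Hsd11b2, which inactivates corticosterone, at 27.7 ± 3.07, Aqp2, and Avpr2, the vasopressin receptor, lowest at 1.47 ± 0.334. Intercalated cell genes had a median of 5.89, led by the proton pump subunit Atp6v0a4 at 48.3 ± 3.42, which proximal cells also make, with the chloride-bicarbonate exchanger Slc26a4 at 13.9 ± 1.16. Of the macula densa genes, Nos1 averaged 1.37 ± 0.255 CPM and Pappa2 1.06 ± 0.277 CPM, and Ptgs2 stayed under 1 CPM.

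**Figure D2:**
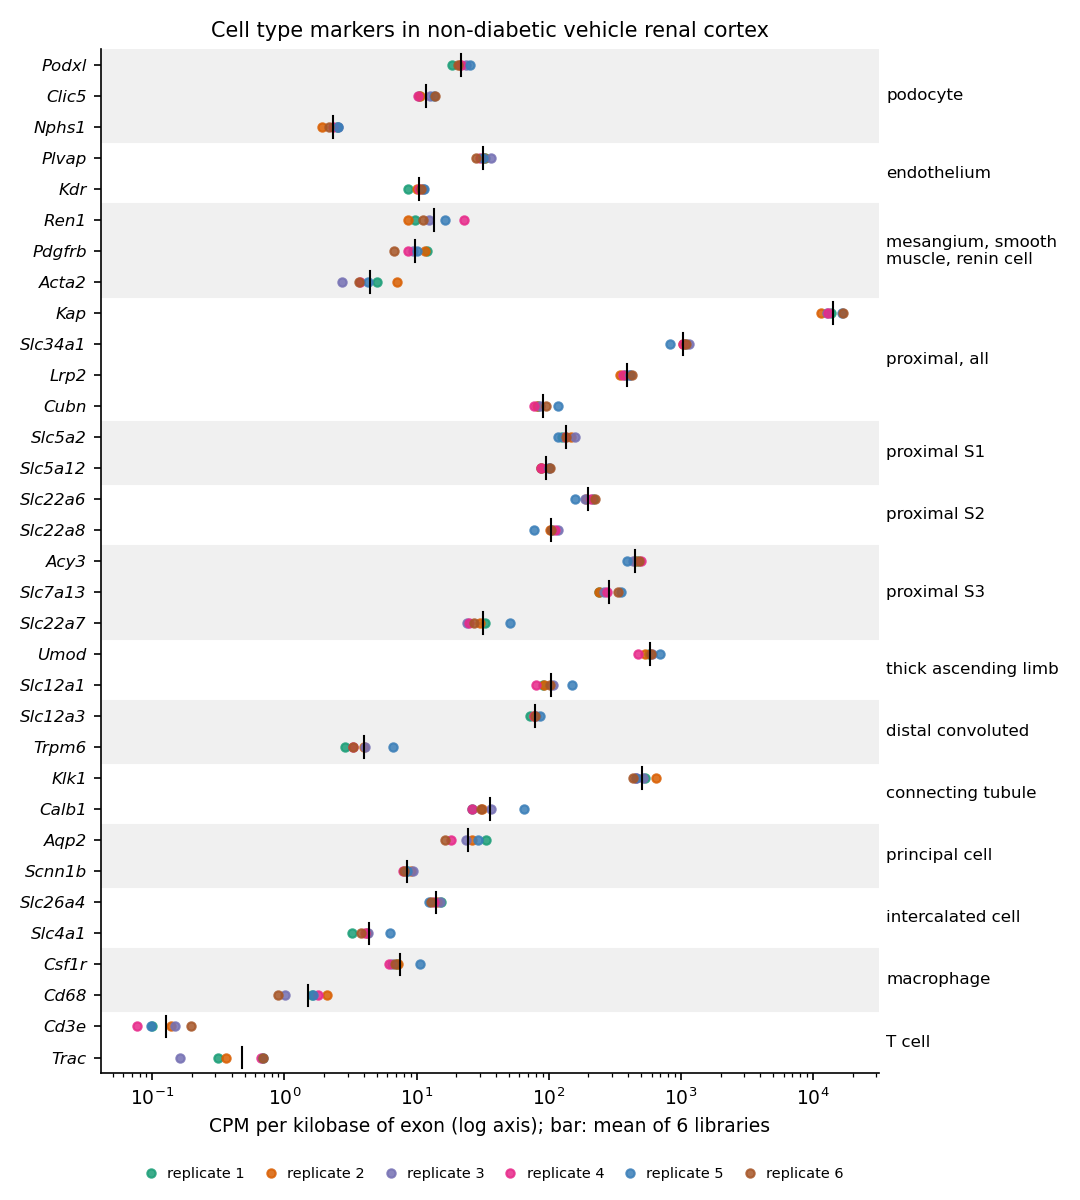
CPM per kilobase of exon (log axis) of marker genes, with 1 point per library and a bar at the mean of 6, grouped by segment or cell type. Kap, Slc34a1 and Lrp2 lie at the right with means of 14122, 1035 and 389.7, podocyte and endothelial genes lie between 2.33 and 32.1, and T cell genes lie under 1.

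Genes of tissues that a cortex piece could carry along were mostly near 0. The inner medullary urea transporter Slc14a2 averaged 0.0434 ± 0.0524 CPM. Of the adrenal list, Cyp11b1 and Cyp11b2 had no count, which allows up to 3 counts in each library, and only Star exceeded 1 CPM, at 1.63 ± 0.385 CPM. No gene of the urothelium, adipose tissue, skeletal muscle, neutrophil or T cell lists averaged 1 CPM, and the summed level of each list was at most 3.69 CPM in any library. All 8 macrophage genes did, at a summed 73.6 to 104 CPM, with Csf1r at 42.97 ± 9.38 CPM and Cd68 at 1.90 ± 0.584 CPM. Of the B and plasma cell list, the immunoglobulin genes Igha and Igkc averaged 85.2 ± 28.6 CPM and 52.1 ± 17.7 CPM, while Cd79a, Cd79b and Ms4a1 of B cells stayed under 1 CPM. Red cell genes summed to between 306 and 642 CPM, and the near-identical copies Hba-a1 and Hba-a2, and Hbb-bs and Hbb-bt, cannot be separated with certainty. Of the liver list, 6 of 7 exceeded 1 CPM, with Ttr at 28.01 ± 9.18 CPM, Fga at 22.3 ± 7.95 CPM and Alb at 12.99 ± 9.67 CPM. The Y-linked genes Ddx3y, Uty, Kdm5d and Eif2s3y averaged between 33.0 and 49.0 CPM, and Xist, which silences the second X chromosome of females, was in the range 0.175 to 0.562 CPM.

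Among transporter genes, those of the proximal tubule and the sodium pump stood highest. For sodium, the pump subunit Atp1b1 stood at 516 ± 47.4 CPM per kilobase, above Slc4a4, Slc12a1 and Slc12a3, and the apical sodium-proton exchanger Slc9a3 was lower at 14.7 ± 1.93. The epithelial sodium channel subunits Scnn1a, Scnn1b and Scnn1g stood at 15.7 ± 1.23, 8.53 ± 0.613 and 6.48 ± 0.654. For glucose, the apical Slc5a2 at 136 ± 13.8 exceeded the basolateral GLUT2 gene Slc2a2 at 34.6 ± 3.73 and Slc5a1 at 14.5 ± 3.86, and its range over the 6 libraries lay above those of both. For phosphate, Slc34a1 stood at 1035 ± 109, Slc34a3 at 16.6 ± 1.83, the widely expressed Slc20a1 and Slc20a2 at 7.35 ± 1.76 and 7.33 ± 0.969, and Slc34a2 at 0.731 ± 0.194.

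For carboxylates, the dicarboxylate carrier Slc13a3 led at 133 ± 7.77, then the lactate transporters Slc5a12 at 94.6 ± 7.82 and Slc5a8 at 52.8 ± 12.9, then the citrate carrier Slc13a2 at 19.6 ± 3.16, and the monocarboxylate carrier Slc16a1 at 6.48 ± 0.889, with ranges apart in all 4 neighbouring pairs. Among 14 amino acid transporter genes the highest were Slc7a13 at 284 ± 49.5, Slc3a1, the cystine carrier's heavy chain, at 238 ± 27.9, Slc6a18 at 104 ± 16.2 and Slc6a19, the neutral amino acid carrier, at 69.2 ± 9.26. Slc7a9, the light chain that pairs with Slc3a1, stood at 42.3 ± 3.00. Among 18 organic ion transporters Slc22a12 led at 526 ± 30.1, above Slc22a6 at 198 ± 24.2 and the cation exporter Slc47a1 at 181 ± 12.3, and Abcb1a was lowest at 1.20 ± 0.267. Water channels ran from Aqp1, of proximal tubule and thin limb, at 211 ± 18.04, to Aqp2, Aqp3 at 21.7 ± 3.44 and Aqp4 at 2.97 ± 0.734. Of the endocytic machinery, cubilin, Cubn, at 90.1 ± 15.01, its adaptor Dab2 at 64.03 ± 5.76 and its partner Amn at 49.1 ± 4.19 stood below Lrp2, and all 3 neighbouring pairs were apart.

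**Figure D3:**
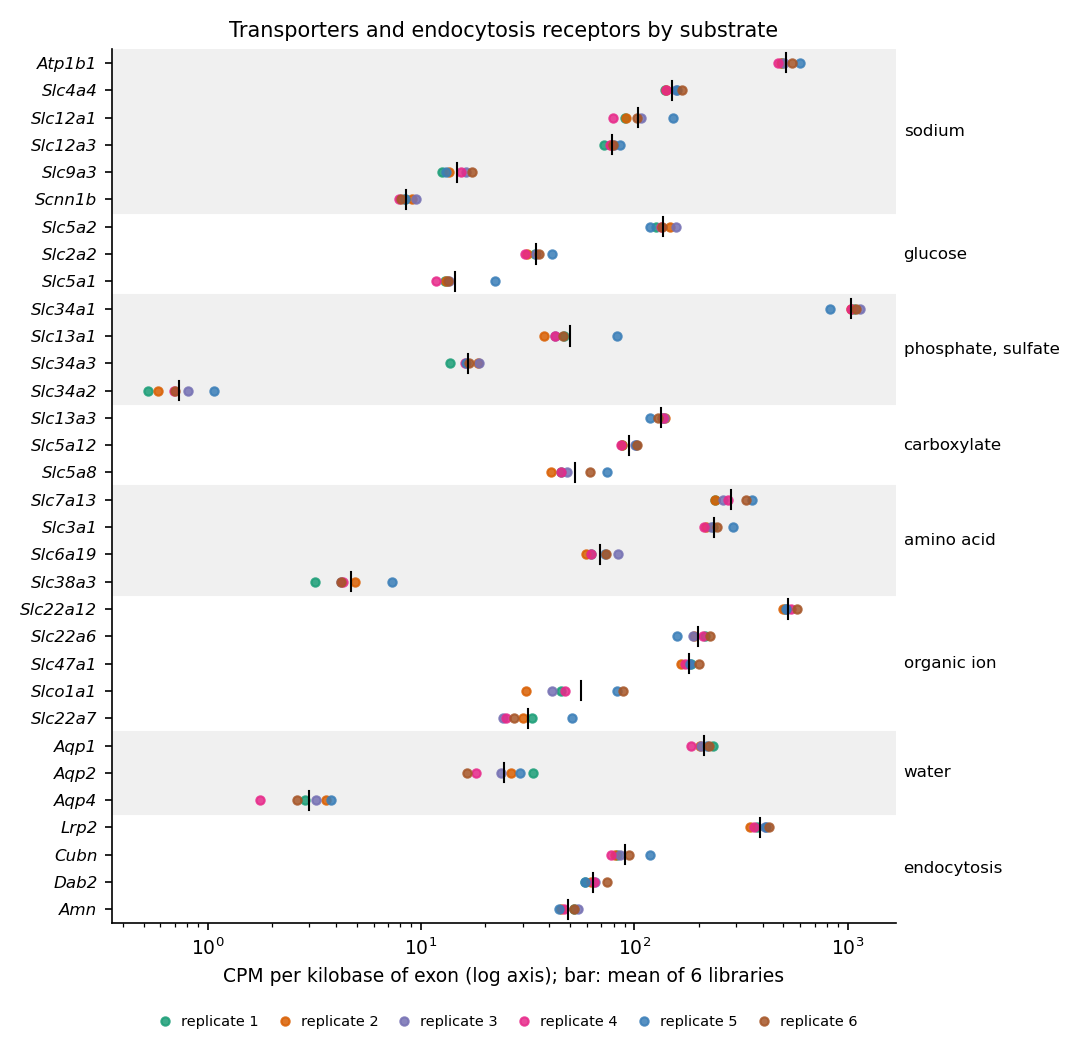
CPM per kilobase of exon (log axis) of transporter and endocytosis genes grouped by substrate, with 1 point per library and a bar at the mean of 6. The highest gene drawn of each substrate, such as Atp1b1 at 516 and Slc34a1 at 1035, stands well to the right of the lowest, Scnn1b at 8.53 and Slc34a2 at 0.731. Replicate 5 lies to the right of the other 5 for Slc13a1 and Slc5a1.

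Genes of glucose production and fructose use stood high among metabolic genes. Of the gluconeogenic enzymes, Pck1, the rate-limiting carboxykinase, stood at 494 ± 137 CPM per kilobase, Fbp1 at 334 ± 15.4, G6pc, which releases free glucose, at 226 ± 80.3 and Pcx at 143 ± 11.4, while the second copies Fbp2 and Pck2 were at 5.98 ± 0.664 and 1.44 ± 0.170. Among fructose and polyol enzymes, Sord stood at 377 ± 32.9 and Khk, ketohexokinase, at 189 ± 13.6. The list's aldose reductase, Akr1b3, was lowest at 2.34 ± 0.630. In glycolysis Ldhb was highest at 355 ± 11.5, followed by Aldoa at 155 ± 6.85. The early enzyme Gpi1 stood at 40.5 ± 1.63, the late enzymes Pkm and Pgam1 at 20.4 ± 2.24 and 13.6 ± 1.44, the entry and commitment enzymes Hk1, Pfkm, Pfkl and Pfkp at 7.80 ± 0.581, 9.97 ± 1.57, 5.20 ± 0.217 and 1.92 ± 0.271, and Hk2 averaged 0.947 ± 0.484 CPM.

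Fatty acid oxidation genes, all 12 above 10 CPM, had a median of 86.3 CPM per kilobase. Peroxisomal Ehhadh stood at 226 ± 58.02, above the mitochondrial dehydrogenases Acadm and Acadl at 116 ± 24.7 and 108 ± 19.4, and the carnitine transferase Cpt1a was at 70.3 ± 5.67. Of the tricarboxylic acid cycle, 13 of 13 genes were expressed with a median of 56.4, and Idh3a was lowest at 16.1 ± 2.11. Redox genes followed Gpx3 with Gpx1 at 638 ± 44.8, catalase, Cat, at 259 ± 23.1 and Prdx1 at 144 ± 17.98. Miox and Akr1a1, of inositol and glucuronate breakdown, stood at 699 ± 91.2 and 406 ± 32.04, and Gulo, the last enzyme of vitamin C synthesis in mouse liver, averaged 0.230 ± 0.184 CPM. For arginine and creatine, Ass1, Gatm and Asl stood at 557 ± 57.2, 139.8 ± 24.7 and 32.8 ± 3.18, and Gamt, which completes creatine, at 8.89 ± 0.576. Ammonia-producing genes were led by Glud1 at 71.9 ± 6.51, with the glutamine importer Slc38a3 at 4.70 ± 1.41.

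Hormone genes spanned a wide range. Kl, the FGF23 co-receptor Klotho, stood at 81.4 ± 8.07, Vdr, the vitamin D receptor, at 49.3 ± 4.44, Cyp24a1, which inactivates vitamin D, at 51.8 ± 20.7 and Cyp27b1, which activates it, at 2.94 ± 0.727. Of the renin-angiotensin system, Ace stood at 46.2 ± 5.91, Agt at 14.2 ± 2.44 and Ren1 at 13.5 ± 5.25. Epo, erythropoietin, averaged 0.0884 ± 0.0923 CPM. Genes known for androgen response or higher level in male kidney, 13 of 13 expressed, were led by Kap and Cyp4b1, with the ornithine decarboxylase Odc1 at 174 ± 36.5. Cyp4a12a, at 59.3 ± 13.7, and its near copy Cyp4a12b, at 10.3 ± 1.37, cannot be separated with certainty. Of 16 nephron transcription factors, Hnf4a, the proximal tubule regulator, led at 171 ± 16.5, the bile acid receptor Nr1h4 stood at 56.00 ± 9.01, and the podocyte factor Wt1 was lowest at 0.925 ± 0.123.

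The spread between libraries was small for most genes. It is given as the coefficient of variation of CPM after the variance of counting was removed. Over the 14070 entries of at least 1 CPM its median was 10.5%, or 7.36% under TMM scaling, and 639 entries, 4.54%, exceeded 30%. Over the 8679 entries of at least 10 CPM, 144 exceeded 30%, which is 1.66%. Of the 8401 named genes at that level, 380 showed no spread beyond counting error, against 950 with TMM scaling and 75 under both, so which genes are narrowest depends on the scaling. Among the genes highest by CPM or per kilobase, Eef1a1 at 3.19% and Fth1, a ferritin chain, at 3.68% varied least. With TMM scaling Eef1a1 and Fth1 were at 9.70% and 8.80%, and the least variable were Atp5b at 0.997%, Slc27a2 at 2.29% and Lrp2 at 2.70%. Kap spread by 15.6%, and Pck1 at 27.7% and Ndrg1 at 28.1% varied most, or 33.6% and 33.1% with TMM scaling.

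The tricarboxylic acid cycle list was narrow, with a median spread of 5.33% and none of 13 genes over 30%. None of 12 endothelial, 10 sodium transport, 14 glycolysis or 12 fatty acid oxidation genes of at least 1 CPM exceeded 30% either. Wider lists included circadian clock with 6 of 14 genes over 30%, liver with 5 of 6, red blood cell with 3 of 5, immediate early with 3 of 8, fatty acid hydroxylation and ketogenesis with 3 of 7, and androgen-responsive with 3 of 13. These shares lie above the 4.54% of all entries, and the genes of a list are not independent of each other.

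**Figure D4:**
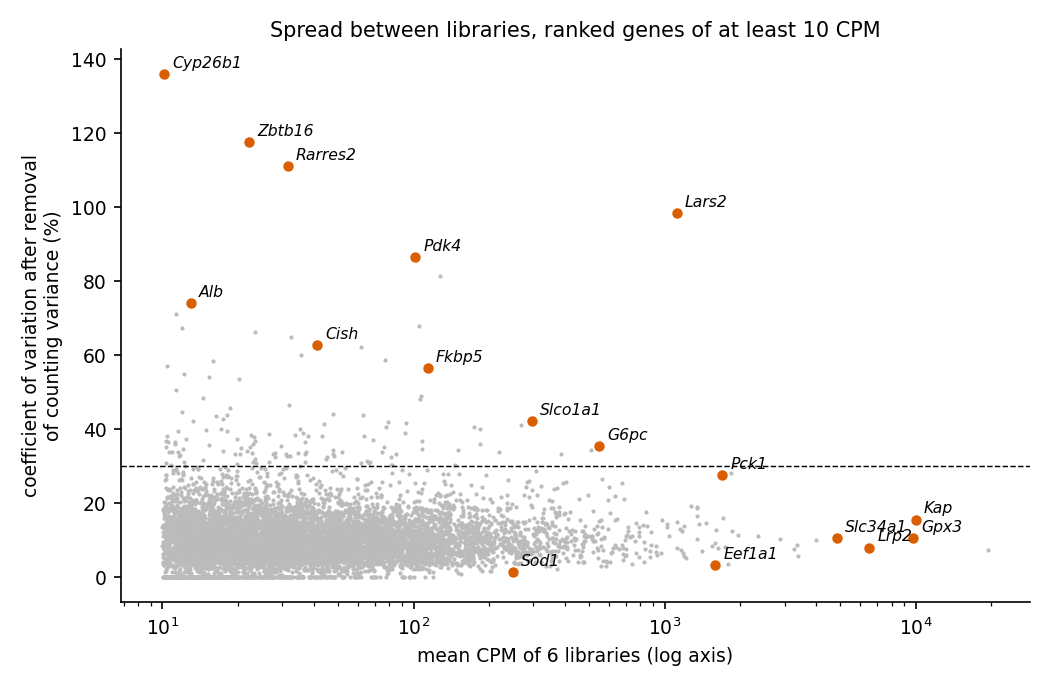
Coefficient of variation after removal of counting variance (percent) against mean CPM (log axis) for 8401 named genes of at least 10 CPM, 1 grey point per gene, with labelled genes in orange and a dashed line at 30%. The cloud centres near 9.82%, and Cyp26b1, Zbtb16, Rarres2 and Pdk4 stand between 86.5% and 136% while Kap, Gpx3 and Lrp2 stand at 15.6%, 10.6% and 8.02%.

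The genes of widest spread were high in 1 library or in several. Among the 15 widest of at least 10 CPM were Cyp26b1, Zbtb16, Rarres2, Lars2, Pdk4, Alb, Egr1, Cyp4a14, Mfsd2a, Mt2, Bcl6, Cish, Cyp7b1 and Slc22a19, the last at 60.1%, just inside the limit of 15, with Slc51a at 58.7% just outside. Of the 40 widest, 14 were highest in replicate 1, 14 in replicate 5, 8 in replicate 6, 2 in replicate 2 and 2 in replicate 4, and the counts were the same with TMM scaling. For 8 of the 40 the mean is under 10 CPM without their highest library, which was replicate 1 for 4 of them and replicate 5 for 2, so the minimum of 10 CPM enters this tally. Among all entries of at least 1 CPM, replicate 1 was highest for 9.99% and replicate 5 for 36.9%, or 21% and 21.4% with TMM scaling. Cyp26b1, a retinoic acid hydroxylase, showed 0.758, 8.76, 12.9, 0.870, 36.3 and 1.12 CPM in replicates 1 to 6, and its mean of 10.1 ± 13.8 CPM is 4.89 without replicate 5. Replicates 2, 3 and 5 carried most of its counts.

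In replicate 5, most genes of fatty acid oxidation were at their highest. Of the 12 genes on that list 11 were highest there, and 9 with TMM scaling, beside the 36.9% and 21.4% of all entries. Peroxisomal Ehhadh stood at 1015 CPM against 563 to 696 in the other 5, Acadm at 647 against 395 to 459 and Acadl at 292 against 183 to 219. Pdk4, the kinase that inhibits pyruvate dehydrogenase, showed 64.2, 59.5, 65.1, 97.4, 277 and 45.2 CPM, and its mean of 101 CPM is 66.3 without replicate 5. It was highest in replicate 5 and lowest in replicate 6. The fatty acid hydroxylases Cyp4a14 and Cyp4a10, members of a cluster of similar genes, reached 233 and 478 CPM there, against 21.3 to 121 and 154 to 253 in the other 5. Of the list of fatty acid hydroxylation and ketogenesis that holds them, 3 of 7 genes were highest in replicate 5 under either scaling. Its member Cyp4b1 was lowest in replicate 5, at 2527 CPM against 2552 to 3301, and Cyp4a12a was highest in replicate 6.

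The same library stood apart for some transport and other genes. Over all entries of at least 1 CPM, 5.51% had 1 library far from the other 5, or 6.68% with TMM scaling. The sulfate transporter Slc13a1 showed 643 CPM against 292 to 363, the calcium-binding Calb1 314 against 126 to 176, Slc5a1 91.5 against 48.3 to 55.5 and Slc22a19 79.5 against 24.6 to 30.8. Rarres2, the adipokine chemerin, showed 103 CPM against 15.8 to 20.6, and its mean of 31.5 is 17.2 without it. Cyp7b1, an oxysterol hydroxylase, showed 137 against 35.9 to 61.7. In the other direction Slc34a1 was lowest there, at 3868 CPM against 4845 to 5350.5, as were Miox at 866 against 1133 to 1287 and Slc22a8 at 303 against 402 to 458. Of the S3 list 5 of 7 genes were highest in replicate 5 under either scaling, of the thick ascending limb list 6 of 8, or 5 with TMM scaling, and of the connecting tubule list 4 of 5, or 3 with TMM scaling, while none of the 4 genes of the S2 list was. Beside these stand the 36.9% of all entries, or 21.4% with TMM scaling. The part of the segments' shares of the tissue in these values was not tested.

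Other genes were highest in replicate 1. Zbtb16, a transcription factor, showed 74.3, 18.9, 15.03, 8.70, 5.61 and 9.95 CPM, and its mean of 22.1 is 11.6 without replicate 1. Fkbp5, a co-chaperone of the glucocorticoid receptor, showed 238, 114, 71.3, 85.5, 64.7 and 108 CPM. Sgk1, a kinase that keeps sodium channels at the membrane, showed 80.1, 44.6, 30.4, 36.8, 37.2 and 35.1 CPM. All 3 are known to be induced by glucocorticoids, as is Tsc22d3, which reached 63.4 CPM there against 25.2 to 37.96. Fkbp5, Sgk1 and Tsc22d3 were picked after their values were seen and no list of such genes was examined, so they describe no group. Per1 and Pdk4, which glucocorticoids are also known to induce, were highest in replicates 6 and 5. The metallothioneins Mt2 and Mt1 reached 49.8 and 55.1 CPM against 11.4 to 32.4 and 18.4 to 44.1, and Igfbp1 25.7 against 7.62 to 12.5. Acnat2, of the acyl-CoA amino acid N-acyltransferase family, reached 199 CPM against 59.8 to 138. Of the gluconeogenic enzymes, G6pc showed 886, 507, 532, 450.3, 594 and 303 CPM and Pck1 2395, 2168, 1283, 1377, 1528 and 1406 CPM, both highest in replicate 1, while Fbp1 had a spread of 4.48%. Of the 6 genes of that list 2 were highest in replicate 1, or 4 with TMM scaling, beside the 9.99% and 21% of all entries. Replicate 6 was highest for 3 of the 6, or 1 with TMM scaling, beside 34.4% and 16.4%.

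The promoters of Sgk1 and Acnat2 are shown because they hold the palindrome AGAACA, any 3 bases, TGTTCT, the full-length sequence that the glucocorticoid receptor is known to bind, in capitals. The RefSeq windows before the starts are chr10:21993640-21993889 (plus strand) for Sgk1 and chr4:49408152-49408401 (minus strand) for Acnat2, both in GRCm38.p6.

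Sgk1: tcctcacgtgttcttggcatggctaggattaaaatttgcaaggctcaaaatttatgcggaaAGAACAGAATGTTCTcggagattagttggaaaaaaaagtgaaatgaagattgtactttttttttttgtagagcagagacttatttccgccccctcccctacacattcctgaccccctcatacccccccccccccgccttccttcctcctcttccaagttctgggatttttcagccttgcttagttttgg

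Acnat2: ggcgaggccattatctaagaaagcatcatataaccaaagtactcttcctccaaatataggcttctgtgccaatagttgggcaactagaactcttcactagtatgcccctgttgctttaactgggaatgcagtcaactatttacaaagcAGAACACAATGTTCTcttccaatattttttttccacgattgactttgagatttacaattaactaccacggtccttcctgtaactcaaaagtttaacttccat

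Among the 40 genes of widest spread, 12 of those highest in replicate 1 matched a window, and 2 of these 12, Sgk1 and Acnat2, held the palindrome. In all 32851 windows it was found in 3, which is 0.00913% of windows rather than of genes, the third belonging to the gene model Gm35041. The genes and letters were chosen after the values were seen, so the count describes these windows only, and Zbtb16, Fkbp5 and Tsc22d3 were not among the matches.

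Genes of the circadian clock, the daily transcription loop, differed between libraries in opposite directions. Arntl, the activator BMAL1, showed 10.4, 6.18, 3.91, 2.61, 2.64 and 1.85 CPM, and its partner Npas2 showed 6.88, 3.09, 3.98, 2.48, 3.52 and 2.17 CPM. Dbp, an output gene whose peak lies opposite to that of Arntl, showed 41.4, 54.7, 87.99, 82.7, 68.6 and 112 CPM. Replicate 1 was highest for Arntl and Npas2 and lowest for Dbp, and replicate 6 was lowest for both activators and highest for Dbp. Ciart, a repressor, showed 3.26, 3.09, 5.94, 6.46, 4.08 and 9.47 CPM, and Per1 showed 44.5, 30.4, 27.95, 30.4, 21.5 and 52.8 CPM, with replicate 6 highest for both. Hlf, Clock, Per2 and Cry2 spread by 5.35%, 6.96%, 7.98% and 6.75% and were about level. The E-box CACGTG, which the clock activators bind, was present in the windows of Ciart, Cry1, Per1 and Tef, 4 of 13 clock genes matched. It was present in 7.15% of all windows, a share of windows and not of genes. The hour of tissue collection is not given in the sources used here.

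**Figure D5:**
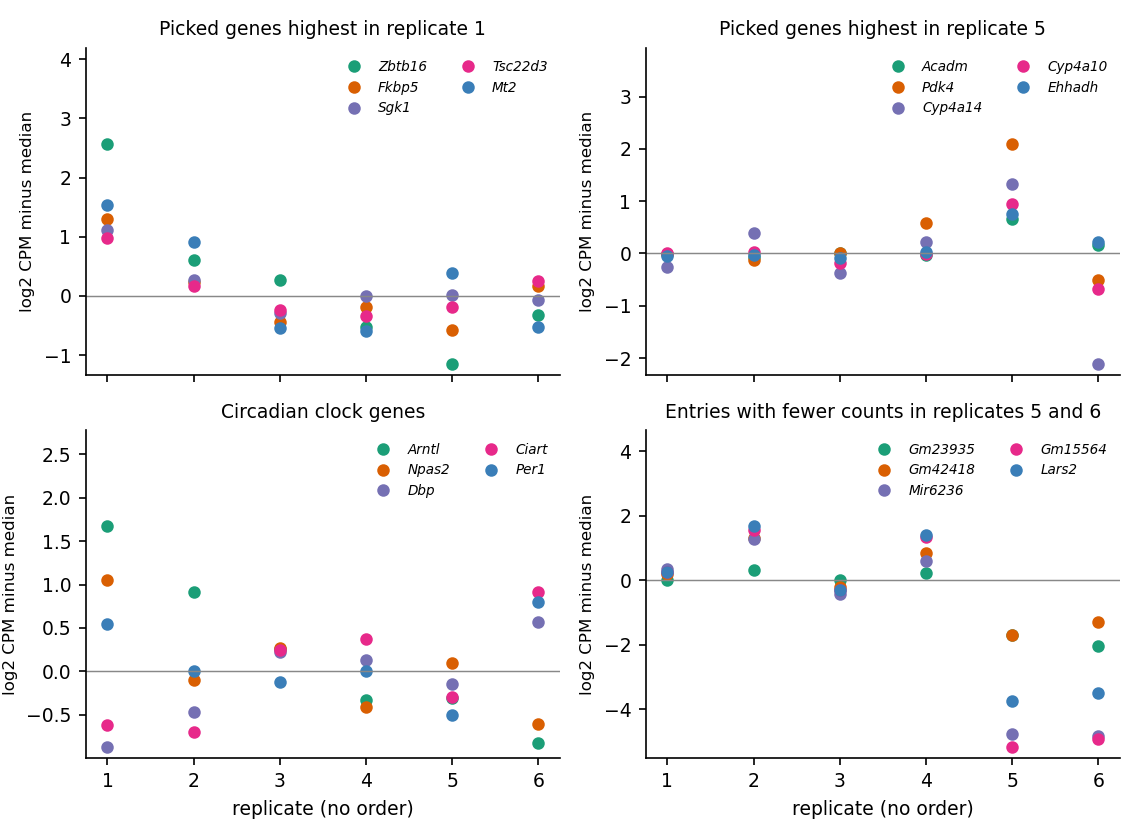
Log2 CPM minus the gene's median over the 6 libraries, by replicate (replicates have no order), for 4 sets of 5 genes. The first, second and last sets were picked after their values were seen. The third draws 5 of 14 listed clock genes, which differed between libraries. Among those left out are Hlf, Clock, Per2 and Cry2, which were about level. Zbtb16, Fkbp5, Sgk1, Tsc22d3 and Mt2 are highest in replicate 1, and Acadm, Ehhadh, Cyp4a10, Cyp4a14 and Pdk4 in replicate 5, while Per1 is highest in replicate 6, Arntl and Npas2 are highest and Dbp lowest in replicate 1, and 5 entries with fewer counts, among them Lars2, are lowest in replicates 5 and 6.

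Other variable genes followed other libraries. Cish, a feedback inhibitor of cytokine signalling, showed 5.71, 10.6, 55.6, 61.6, 53.2 and 61.5 CPM, low in replicates 1 and 2 and about level in the other 4. Bcl6, a transcriptional repressor of that pathway, showed 49.5, 67.6, 19.5, 25.7, 13.3 and 20.2 CPM, with replicates 1 and 2 highest. Socs2, another feedback inhibitor of growth hormone signalling, ran from 6.99 to 32.98 CPM with replicate 1 lowest and replicate 6 highest. The immediate early gene Egr1 showed 2.62, 7.80, 3.76, 16.3, 23.7 and 13.96 CPM, lowest in replicates 1 and 3, and Fos, in the range 0.150 to 2.88 CPM, was lowest in the same libraries. Slco1a1, an androgen-dependent organic anion transporter, showed 238, 165, 217, 250.5, 438 and 466 CPM, with replicates 5 and 6 apart from the other 4, and Kap was also highest in those 2 libraries at 11773 and 12017 CPM. With TMM scaling the spread of Kap was 8.43% and that of Slco1a1 34.4%. Ren1 was highest in replicate 4 at 37.8 CPM, with a range of 14.4 to 37.8 CPM, and Alb at 28.1 CPM in replicate 4, with a range of 5.25 to 28.1 CPM.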

How the data were processed

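The deposited table holds raw counts per gene, which the authors made from rRNA-depleted directional libraries of 200 ng total RNA per the labels, with bcl2fastq 2.20.0.422, STAR and the build GRCm38 per the submitters' processing notes. Counting tool, annotation and strandedness of counting were not stated in labels or notes, so antisense and overlapping genes and near-identical copies are uncertain. Here counts were divided by library totals, and by exon length from GENCODE M21 for 48144 of 48526 matched entries. The spread is the square root of the squared coefficient of variation less the relative counting (Poisson) variance, with negative differences set to 0. It was tried on simulated counts drawn with the same counting variance. No comparison between groups was made and no p-value was computed. A library was called far from the other 5 by the cutoff of Dixon's criterion for 6 values, 0.625. Members and gene lists were chosen with earlier results of these data known. Named genes were the 20 highest by CPM and per kilobase, 6 markers, the highest 4 and the lowest of each of 52 lists with other members by role, the 15 widest and 5 narrowest in spread, and those with 1 library apart, of which some are not reported here. The narrowest were tied at 0 and are given as a count, and Slc51a, Socs2, Fkbp5, Sgk1, Tsc22d3, Igfbp1, Mt1, Acnat2, Fos and the non-coding entries were added after their values were seen. Alternatives used TMM (edgeR 4.0.16), DESeq2 1.42.0 size factors, a total without ribosomal and mitochondrially encoded RNA, transcript length, filters and left-out libraries. Promoter sequences are RefSeq, GRCm38.p6, 32851 windows.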

Additional observations from a re-analysis of the deposited data

Results flagged for a closer look

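Of 184 named genes of at least 1 CPM, 23 had 1 library far from the other 5, measured by the gap to the nearest library over the whole range. Chance alone gives about 1 such gene in 20, but some of the named genes were chosen for their wide spread and all share the same 6 libraries, so their share is not read against it. Over all 14070 entries of at least 1 CPM it was 5.51%, or 6.68% with TMM scaling. Replicate 5 was the library apart for 18 of the 23, replicate 6 for 3 and replicate 1 for 2. How often each library stood apart over all entries was not counted, so these numbers have no background share. Over all entries of at least 1 CPM, replicates 5, 6 and 1 were highest for 36.9%, 34.4% and 9.99%, or 21.4%, 16.4% and 21% with TMM scaling. Of the 23, 15 stood apart with TMM scaling too, the exceptions being Miox, Fxyd2, Slc22a8, Cyp4a10, Slc8a1, Cyp4a12a, Csf1r and Akr1b3.

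Replicate 5 was the high library for the fatty acid genes Ehhadh (1015 CPM against 563 to 696), Acadm (647 CPM against 395 to 459), Cyp4a10 (478 CPM against 154 to 253), and Acadl (292 CPM against 183 to 219), and for Pdk4 (277 CPM against 45.2 to 97.4). It was also high for the transport and calcium-handling genes Slc13a1 (643 CPM against 292 to 363), Calb1 (314 CPM against 126 to 176), Slc8a1 (250.1 CPM against 138 to 178), Slc5a1 (91.5 CPM against 48.3 to 55.5) and Slc22a19 (79.5 CPM against 24.6 to 30.8). Further genes high in it were Cyp7b1 (137 CPM against 35.9 to 61.7), Csf1r (61.6 CPM against 35.8 to 41.7), Rarres2 (103 CPM against 15.8 to 20.6) and Cyp26b1 (36.3 CPM against 0.758 to 12.9). It was the low library for Slc34a1 (3868 CPM against 4845 to 5350.5), Miox (866 CPM against 1133 to 1287), Fxyd2 (701 CPM against 787 to 825) and Slc22a8 (303 CPM against 402 to 458).

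Replicate 6 was the high library for Cyp4a12a (209 CPM against 121 to 144), Nr1h4 (169.8 CPM against 115 to 129.9) and Akr1b3 (29.8 CPM against 14.4 to 19.5). Replicate 1 was the high library for Igkc (85.4 CPM against 35.9 to 52.2) and Zbtb16 (74.3 CPM against 5.61 to 18.9).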

How the results depend on the processing

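No paired analysis was possible because a single group was described and no result comes from a test of a difference between groups. The 14070 entries of at least 1 CPM became 26019 with no minimum, and lay between 14012 and 14110 when each library was left out in turn. The 639 entries with a spread over 30% became 144 at 10 CPM or more, 5127 with no minimum, 1091 without removal of counting variance and 213 by edgeR's biological coefficient of variation, and lay between 536 and 786 with 1 library left out. The median spread lay between 9.20% and 11.3%, the nuclear protein-coding share between 64.5% and 66.7%, and the shared members of both lists of 20 between 19 and 20 in those settings. With replicates 1 to 4 only, chosen after seeing the data, 13944 entries, 464 wide entries, a median of 6.18% and 18 of the 20 highest by CPM were found. The longest transcript as length kept 18 of the 20 highest per kilobase. A total without ribosomal and mitochondrially encoded RNA raised every CPM, and 313 of 417 named genes moved by over 1 SD, which the smaller total produces by construction. The mean of 4 of 365 named genes moved by over 1.5 times without 1 library: Pdk4, Rarres2, Zbtb16 and Cyp26b1. Depth limits levels under 1 CPM, where libraries held few counts.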

Other observations

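Among mitochondrially encoded messenger RNAs, mt-Co1, a subunit of cytochrome c oxidase, averaged 11395 ± 584 CPM, mt-Cytb 8932 ± 1526 CPM and mt-Nd5 6364 ± 938 CPM. Per kilobase of exon mt-Cytb stood at 7808 ± 1334 CPM and mt-Co1 at 7376 ± 378, between Kap and Gpx3, while the nuclear partner Atp5b of the ATP synthase stood at 408 ± 33.4. Among small non-coding RNAs, Rn7sk, which holds back transcription elongation, averaged 3511 ± 1101 CPM, Rpph1, the RNA of ribonuclease P, 2107 ± 137 CPM and Rmrp 946 ± 163 CPM. Rn7sk was lowest in replicate 5 at 2017 CPM and highest in replicate 2 at 4889.6.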
